A study of Mus musculus with 7 samples.

Results

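Non-cytotoxic T cells were cells of the primary tumor with CD3 or Trac messages and without a UMI of 6 genes of cytotoxic and CD8 T cells. They were chosen by their counts of unique molecular identifiers (UMIs, 1 for each captured mRNA molecule). A barcode with 200 to 6000 genes was a member when it held at least 2 UMIs of Cd3d, Cd3e, Cd3g and Trac, 0 UMIs of Nkg7, Ccl5, Gzma, Gzmb, Cd8a and Cd8b1, at most 1 UMI of Epcam, Krt8 and Krt18, and 0 UMIs of C1qa, C1qb and C1qc. In all, 351 of 15047 cells were members, or 2.33%. The cells came from 7 control tumors, each a Drop-seq library of its own mouse, and Drop-seq captures single cells in droplets with a barcoded bead. The donors were MMTV-PyMT;HK2f/f mice on a C57BL/6 background, labelled wild type. The MMTV promoter drives the polyoma middle T oncogene PyMT mainly in mammary epithelium. All mice carried the floxed HK2 alleles without deletion and received tamoxifen once a tumor was found. The labels place sampling 3 months after the tumor became palpable. By their titles, replicates 1 to 4 form a CB series, and replicates 5, 7 and 8 form a WT series. HK2-deleted tumors are not analysed here.

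A T cell recognises antigen through a receptor made of an alpha and a beta chain (Trac, Trbc1, Trbc2) or of a gamma and a delta chain (Tcrg-C genes, Trdc), and both kinds signal through the CD3 chains and the zeta chain Cd247. Naive T cells express the lymph node homing receptor Ccr7 and the transcription factors Lef1 and Tcf7. CD4 helper cells direct other immune cells through cytokines and costimulatory molecules, and regulatory T cells, which carry the transcription factor Foxp3, restrain them. Gamma-delta T cells of barrier tissues, the mammary gland among them, can release the cytokine interleukin-17A without prior priming. In the GRCm38 annotation the CD3 genes of the gate are neighbors, with Cd3g, Cd3d and Cd3e on chromosome 9 (44969572 to 44980431, 44981786 to 44987339 and 44998740 to 45009627). Trac lies on chromosome 14 (54220521 to 54224206) downstream of Trdc (54142851 to 54148868), and Il17a and Il17f are neighbors on chromosome 1 (20730905 to 20734496 and 20777146 to 20790617).

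The members made up 1.35, 6.34, 0, 1.80, 4.13, 1.87 and 0.441% of the cells in replicates 1, 2, 3, 4, 5, 7 and 8, which were 29, 126, 0, 86, 64, 41 and 5 cells. The mean share was 2.27% ± 2.23 (SD, n = 7 mice). The CB series (2.37% ± 2.75, n = 4) and the WT series (2.15% ± 1.86, n = 3) overlapped widely. Replicate 2 stood highest, with an exact binomial 95% interval of 5.31 to 7.50%. Replicate 3 had no member among 1251 cells, with an upper limit of 0.294% by the same interval. In replicate 3 all 20 T cells within the same limits on CD3, epithelial and C1q genes held a cytotoxic UMI. Of the T cells within those limits, the members were 46.8, 48.1, 0, 36.4, 35.0, 17.3 and 71.4%, the last from 7 cells only. Intervals here and below cover counting error only.

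**Figure D1:**
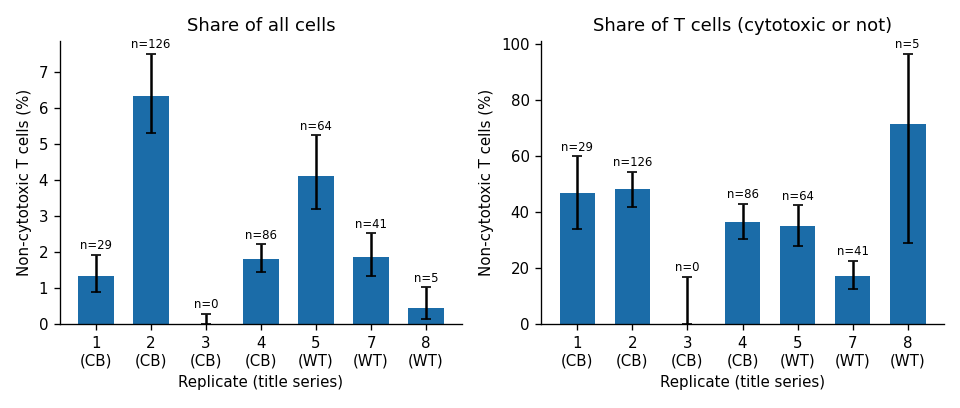
Share of non-cytotoxic T cells in each of 7 control tumors, as a percentage of all cells (left) and of T cells with or without a cytotoxic UMI (right). Bars are shares, lines are exact binomial 95% intervals and n is the number of members. Replicate 2 is highest among all cells with 6.34%, and replicate 3 is at 0 in both panels.

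The gate was set by few molecules. A median member held 419 UMIs and 311 genes, against 490.5 UMIs in the 656 cytotoxic T cells (the same limits, but at least 1 UMI of the 6 cytotoxic genes) and 587 in the 2637 other immune cells (at least 1 UMI of Ptprc or Tyrobp and 0 of the CD3/Trac genes). Of 1112 cells with at least 2 CD3/Trac UMIs, 723 held a cytotoxic UMI, 49 held over 1 epithelial UMI and 62 held a C1q UMI. A set of 25 other T cell receptor and signalling genes, which the gate did not use, summed to 7514 CPM (UMIs of a gene per 1000000 UMIs of the summed cells) in the 183 members with exactly 2 CD3/Trac UMIs. The 246 cells just outside, with 1 UMI, reached 6201 CPM, and the 101 T cells excluded for exactly 1 cytotoxic UMI reached 7696. Cells just inside and just outside the gate thus held T cell messages at similar levels. The gate was also set beside 2 measures of depth and of stray UMIs. Of 586 cytotoxic T cells with at least 300 UMIs, 11.3% held no cytotoxic UMI after thinning to 300, with 21.8% in replicate 2 and 4.76% in replicate 7. Of the 2637 other immune cells 343 held a cytotoxic UMI, and 2.67% of 5944 epithelial-marked cells (at least 3 UMIs of Epcam, Krt8 and Krt18, none of the CD3/Trac genes) held a cytotoxic UMI as deposited. In replicate 3 the latter share was 0.669%. How many cytotoxic T cells are counted as members was not tested. Of the barcodes, 5 occurred in more than 1 library and 0 of these were members.

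The label was checked against its markers Cd3d, Cd3e, Trac and Cd4. The first 3 chose the cells, and a UMI of each was held by 45.9, 31.9 and 61.5% of the members. Cd4, the coreceptor of helper and regulatory T cells, had 22 UMIs in 20 members, or 5.70%. Among cytotoxic T cells, other immune cells and epithelial-marked cells, 1.07, 1.10 and 0.0841% held a Cd4 UMI. With each cell thinned to 300 UMIs, the share was 3.86% in the members and 0.512, 0.409 and 0.0176% in the others. Cd4 UMIs numbered 1, 13, 0, 1, 7, 0 and 0 in replicates 1, 2, 3, 4, 5, 7 and 8, so replicates 2 and 5 carried most of them. At 3 counts over the number of cells, 0 of 41 members in replicate 7 allows up to 7.32% with a captured Cd4 UMI. This is no limit on cells that express it. At this depth the members cannot be called CD4 T cells as a group, and they are named by their gate.

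Beyond the gate, the members carried the messages of the T cell receptor and of its signalling chain. They were compared with the other immune cells of the same tumor on UMIs summed per mouse, in the 5 mice (all but replicates 3 and 8) with at least 10 cells of each kind. A quasi-likelihood test in edgeR, blocked on the mouse, called 632 of 1711 genes (36.9%), with 288 higher (16.8%) and 344 lower (20.1%) at a Benjamini-Hochberg adjusted p under 0.05, with the genes of the gate left out of the test. Of the 25 receptor and signalling genes, 12 passed the filter on low counts and were higher in the members. The filter asked for about 95.7 CPM in 5 sums, and 11 of these 12 lay below that level in the other immune cells on average, so they could enter only where the members were high and their count is no evidence. The same held for 3 of the 4 helper, 3 of the 4 regulatory and 5 of the 11 naive genes tested below, and for Trdc, Itgb7 and Areg. Trbc2, the constant region of the beta chain, was at 2758, 1730, 2237, 2411 and 1944 CPM in the members of replicates 1, 2, 4, 5 and 7, and at 188, 239, 52.7, 91.7 and 109 in the other immune cells. The groups did not overlap, and the log2 fold change was 4.05 ± 0.26 (SE, edgeR adjusted p = 1.98e-11). Cd247 was at 214 ± 73.7 CPM against 13.7 ± 14.9 (SD, n = 5 mice), a log2 fold change of 3.94 ± 0.56 (edgeR adjusted p = 4.86e-06). Lat, the scaffold that links the receptor to its downstream kinases, rose by 4.01 ± 0.35, and the costimulatory receptors Cd28 and Cd27 rose by 3.37 ± 0.53 and 3.56 ± 0.60 on the log2 scale. Reads of Trbc1 and Trbc2 are hard to tell apart because the copies are nearly identical. In the annotation Cd247 and Cd27 overlap genes on the other strand and on their own, Gm16565 and Mir8113 among the latter.

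Of the listed helper genes, Icos and Rora had the largest increases, and neither is particular to helper cells. Icos was at 1893 CPM in the members with a gamma-delta chain UMI, described later, and 758 in the others, and Rora at 946 and 427 (pooled counts). Of the 23 helper genes, 4 passed the filter and 3 of these were higher than in other immune cells, beside 16.8% of all genes tested. Icos, a costimulatory receptor of activated T cells, was at 587, 438, 1270, 1399 and 1773 CPM in the members of replicates 1, 2, 4, 5 and 7, and at 15.9 to 51.6 in the other immune cells. The log2 fold change was 5.33 ± 0.35 (edgeR adjusted p = 1.98e-11). With all values of the other immune cells below the filter level, the filter itself placed every member value above them. Rora, a nuclear receptor used by several innate-like and helper lineages, was at 1408, 254, 663, 566 and 400 CPM. In the other immune cells it was at 32.7 ± 5.49 (SD, n = 5), again below the filter level. It rose by 3.90 ± 0.34 on the log2 scale. Batf, a transcription factor of activated T cells, rose by 1.87 ± 0.44 (edgeR adjusted p = 0.00157). For Maf the difference was 0.90 ± 0.40 and did not pass the test (edgeR adjusted p = 0.0851). Of the helper cytokines, Il4, Il13 and Il2 had 0 UMIs and Ifng had 2, both in 1 cell, while Il17a had 174 UMIs and is described with the gamma-delta genes. The factors of the Th1, Th2 and follicular programs held 3 (Tbx21), 12 (Gata3) and 0 UMIs (Bcl6) over all members. Cd40lg, the helper cell ligand for B cells, held 13 UMIs in 11 members.

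Genes of regulatory T cells were present in a small fraction of the members. Foxp3 itself had 8 UMIs in 7 members (3, 4 and 1 UMIs in replicates 2, 4 and 5), and 1 of these cells also held a Cd4 UMI. In the annotation Foxp3 overlaps other genes, Flicr on its own strand among them. Of the 20 regulatory genes, 4 passed the filter and 2 were higher than in other immune cells, beside 16.8% of all genes tested. Ctla4, an inhibitory receptor that competes with Cd28 for its ligands, was at 176, 162, 110, 119 and 114 CPM in the members and at 0 to 9.95 in the other immune cells. The log2 fold change was 5.21 ± 0.78 (edgeR adjusted p = 9.42e-06). As for Icos, the filter fixed the lack of overlap between the groups. Tnfrsf4, which encodes the costimulatory receptor OX40, reached 939 CPM in replicate 1 and 172 to 304 in replicates 2, 4, 5 and 7, and rose by 5.68 ± 0.56. Capg and Nrp1 had log2 fold changes of 0.76 ± 0.34 and -0.91 ± 0.58 and did not pass (edgeR adjusted p = 0.0811 and 0.244).

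Genes of naive and central memory T cells were set beside the same cells. Of the 20 genes, 11 passed the filter and 10 were higher than in other immune cells, beside 16.8% of all genes tested. Of the 11, 5 could enter only where the members were high, so this count is no evidence. Tcf7, a transcription factor of naive and self-renewing T cells, was at 352, 381, 304, 149 and 172 CPM in the members and at 0 to 24.9 in the other immune cells, with a log2 fold change of 4.35 ± 0.48 (edgeR adjusted p = 1.37e-07). Lef1, its paralog, rose by 3.84 ± 0.44, and S1pr1, the receptor that lets lymphocytes leave lymphoid tissue, rose by 2.98 ± 0.43. Il7r, the receptor for the survival cytokine interleukin-7, rose by 2.75 ± 0.39. Klf2, which drives S1pr1, was at 1115, 3161, 1657, 1816 and 229 CPM against 368, 771, 285, 229 and 481, so replicate 7 went against the other mice (log2 fold change 1.85 ± 0.30). Ccr7 was at 646, 1061, 221, 447 and 57.2 CPM in the members and rose by 1.59 ± 0.28 (edgeR adjusted p = 8.26e-05). When, in an alternative added after the data were seen, the other immune cells had to meet the members' limits on C1q and epithelial UMIs, its log2 fold change was -0.14 (edgeR adjusted p = 0.758). Of the 5 naive genes fitted under these limits, Klf2 was higher, and Foxp1, Ms4a4b and Ms4a6b, at 0.03, 0.61 and 0.55 on the log2 scale, lost their calls with Ccr7 (edgeR adjusted p = 0.963, 0.115 and 0.24). Icos, Rora, Trdc, Tnfrsf4, Klf2 and Trbc2 stayed higher, by 3.43, 3.35, 3.53, 3.97, 1.40 and 2.24 on the log2 scale. Ctla4, Tcf7, Lef1, S1pr1, Il7r, Cd247, Cd27 and Cd28 were not fitted under these limits, so their increases were not checked there.

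Trdc, the constant region of the delta chain, was higher than in the other immune cells. Its values were 293, 242, 608, 298 and 1315 CPM in the members of replicates 1, 2, 4, 5 and 7. In the other immune cells they were 5.73 to 34.8 (log2 fold change 5.45 ± 0.48, edgeR adjusted p = 4.4e-09). The filter fixed the lack of overlap between the groups here too. Of the 21 gamma-delta and interleukin-17 genes, 3 passed the filter, and Tmem176a and Tmem176b, which did not pass the test, had log2 fold changes of -0.09 ± 0.33 and -0.50 ± 0.32. Several genes under the filter had UMIs in a larger share of members than of the other cells. Cd163l1, a scavenger receptor of gamma-delta T cells, had 43 UMIs in 8.83% of members, against 0.762% of cytotoxic T cells and 0.152% of other immune cells. Blk, a Src-family kinase, had 15 UMIs in 3.99% of members, against 0.152 and 0.228%. Trdv4, a variable segment of the delta chain, had 21 UMIs in 4.27% of members, against 0.305 and 0.152%. Il17a, left out by the filter in this comparison, had 174 UMIs in 39 members (11.1%), against 0.457% of cytotoxic T cells, 0.341% of other immune cells and 0.0505% of epithelial-marked cells. Il17f had 10 UMIs in 2 members, both of which also held Il17a, and 5 UMIs in 2 cytotoxic T cells. Trdc overlaps Trdv5 on the other strand in the annotation.

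**Figure D2:**
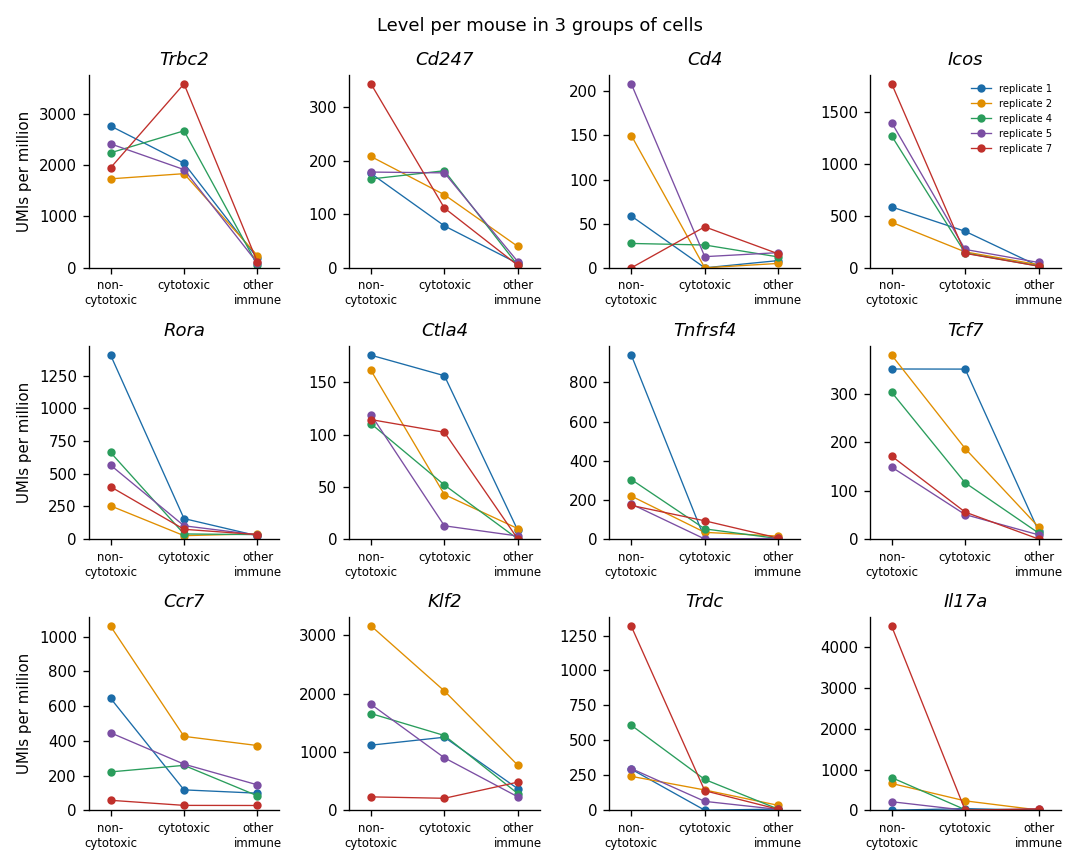
CPM of 12 genes in non-cytotoxic T cells, cytotoxic T cells and other immune cells, summed per mouse. Each line joins the values of 1 mouse (5 mice with at least 10 cells of each kind), and the vertical axes start at 0 with their own scale. Icos and Rora are higher in the members than in both other groups in each mouse, Ccr7 and Klf2 are highest in replicate 2, and Trdc and Il17a are highest in replicate 7.

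Messages of other cell types were also found in the members. All 10 macrophage and monocyte genes that passed the filter and all 4 dendritic genes were lower than in other immune cells, a group that holds those cells. Of all genes tested, 20.1% were lower. Csf1r, Ms4a7, Cd68, Fcgr3, Cd14, Lyz2 and H2-Eb1 lay below the filter level of 95.7 CPM in the members on average. So did the 8 genes named next, so these entered only through the other immune cells and their count is no evidence. Ms4a7, Ccl3, Tgfbi, Ccl7, Ccl2, H2-M2, Lpl and Plau had 0 UMIs among 191015 UMIs of the members of 5 mice. Against a floor of 3 UMIs over the members, they were at least 52.0-, 42.3-, 37.7-, 26.6-, 24.1-, 20.9-, 19.3- and 13.3-fold lower. The summed 12 macrophage genes lay between 536 and 1372 CPM in the members and between 21921 and 43919 in the other immune cells of these mice, and Csf1r, Mrc1 and Ms4a7 were at 0. The 9 tumor epithelial genes summed to 476 to 4804 CPM, highest in replicates 7 and 4 and lowest in replicate 5, against 6729 to 24481 in the other immune cells, and 14 members held a PYMT UMI. The gate itself limits epithelial and C1q UMIs in the members only. With the members' limits on both sides, Csn3, Lcn2 and Wfdc18 differed by -0.38, -0.53 and -0.74 on the log2 scale and were not called (edgeR adjusted p = 0.317, 0.203 and 0.0527). Of the 4 tumor epithelial genes fitted under these limits, Spp1 stayed lower, at -2.62 (edgeR adjusted p = 1.95e-05). The 12 B cell genes summed to 254 to 476 CPM, with Cd79a at 0. Areg, which encodes the growth factor amphiregulin and is listed here with innate lymphoid genes, was higher in the members, by 2.02 ± 0.36 on the log2 scale (edgeR adjusted p = 8.01e-05), and 42.4% of its 59 UMIs came from 1 cell of replicate 2. Gzmc, a granzyme outside the gate, had 113 UMIs, all in 1 cell of replicate 2. The 4 erythroid genes summed to 822, 80.8, 4391, 89.3 and 2230 CPM in replicates 1, 2, 4, 5 and 7, against 1088, 54.7, 1453, 11.5 and 1269 in the other immune cells, and 96 of the 145 Hbb-bs UMIs lay in 1 cell of replicate 4. Hba-a1, a hemoglobin chain of red cells, was called higher (1.22 ± 0.45, edgeR adjusted p = 0.0369) but went the other way or was absent in 2 of 5 mice, and 12 of 14 other settings did not call it. The part of these other cells and of free RNA in the gene lists above was not tested.

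Compared with cytotoxic T cells of the same tumors, the members were higher in Rora, Icos and Trdc and lower in Cd7, Fcer1g and Tcrg-C2. The question of this comparison was which messages separate T cells with and without the cytotoxic genes when both carry CD3. The edgeR test called 53 of 881 genes (6.02%), with 24 higher (2.72%) and 29 lower (3.29%), again without the genes of the gate. The filter here asked for about 176 CPM in 5 sums. Of the 12 largest increases 7 (Rora, Tmem64, Trdc, Rgcc, Gadd45b, Atf3 and Nr4a1) lay below it in cytotoxic T cells on average, and all 8 of the largest decreases lay below it in the members, so these entered mainly through the group where they are high. Il17a and Itgb7 were likewise below it in cytotoxic T cells. Of 11 receptor and signalling genes tested, 0 were called, and Trbc2 differed by -0.11 ± 0.14 (edgeR adjusted p = 0.827). The costimulatory receptors Cd28 and Cd27 differed by 0.18 ± 0.32 and -0.25 ± 0.35 and did not pass (edgeR adjusted p = 0.878 and 0.833). Rora was 79.3 ± 52.4 CPM in cytotoxic T cells and 658 ± 448 in the members (SD, n = 5 mice), a log2 fold change of 2.98 ± 0.32 (edgeR adjusted p = 1.48e-05). Icos was at 352, 153, 142, 177 and 139 CPM in cytotoxic T cells of replicates 1, 2, 4, 5 and 7, below all member values, and rose by 2.58 ± 0.31 (edgeR adjusted p = 6.67e-05). Trdc rose by 1.96 ± 0.38, while the gamma chain constant gene Tcrg-C2 fell by 2.86 on the log2 scale, from 349 ± 81.6 CPM in cytotoxic T cells to 62.7 ± 50.0 in the members. Trdc was not called without the mouse block and in the CB series alone. The Tcrg-C genes resemble each other in sequence, so reads may be split between them, and Tcrg-C2 was the only 1 of them tested. Il17a was higher in the members of 4 of 5 mice, by 4.02 ± 0.70 (edgeR adjusted p = 0.00137), with 0 UMIs in the members of replicate 1. DESeq2 and the test without the mouse block did not call it.

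Further genes with the largest increases over cytotoxic T cells are named here without a list behind them. Nr4a1, a nuclear receptor induced by receptor signalling, was at 475 ± 134 CPM against 169 ± 64.2 (SD, n = 5), a log2 fold change of 1.45 ± 0.23 (edgeR adjusted p = 0.000746). Pim1, a serine/threonine kinase, and Gadd45b, a stress response gene, rose by 1.61 ± 0.29 and 1.71 ± 0.33. Zfp36l1 and Zfp36, which bind and destabilise cytokine mRNAs, rose by 1.59 ± 0.32 and 1.17 ± 0.23, and the cell cycle inhibitor Cdkn1a rose by 1.17 ± 0.23. Atf3, a transcription factor of the stress response, rose by 1.46 ± 0.36, Rgcc by 1.71 ± 0.29 and Tmem64 by 2.44 ± 0.37. Each of these was higher in 5 of 5 mice. Pim1 and Zfp36l1 were called under every other setting fitted. Atf3 was called under 3 of 9, Gadd45b under 10 of 12, Nr4a1 under 11 of 13, and Zfp36 and Cdkn1a under 11 of 14, both lost without the mouse block, without a filter and in the CB series alone.

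The genes with the largest decreases against cytotoxic T cells were led by Cd7. Cd7, an immunoglobulin superfamily receptor, fell by 3.79 on the log2 scale, from 1142 ± 390 CPM to 88.4 ± 47.2 (SE 0.29, edgeR adjusted p = 3.14e-07). Fcer1g, an adaptor chain of activating receptors, fell by 3.00, from 769 ± 250 to 108 ± 108 CPM (edgeR adjusted p = 1.22e-05). The receptors Cd160 and Klra7 fell by 3.19 and 2.67, and Klrd1, the CD94 chain of NKG2 receptors, fell by 1.80 on the log2 scale. Litaf and Ly6c2 fell by 2.51 and 2.22 on the log2 scale. Among 15 cytotoxic genes outside the gate, 5 were tested, and Ctsw, Xcl1 and Klrd1 were lower, beside 3.29% of all genes tested. The gate parts these 2 groups by other cytotoxic genes, so this count is no independent evidence. Xcl1 was higher in the members of replicate 1, where 27 of its UMIs lay in 1 cell. Gzmk, which encodes a granzyme, had 0 UMIs in the members against 63 in the cytotoxic T cells of the 5 mice, at least 9.86-fold lower against a floor of 3 UMIs over the members. Prf1, perforin, had 2 UMIs in the members. Of the naive genes, Ccr7 was higher (0.99 ± 0.28, edgeR adjusted p = 0.0428, not called under 6 of 12 other settings) and Ms4a4b lower (-1.10 ± 0.18), while Tcf7, Lef1 and Klf2 had log2 fold changes of 1.02 ± 0.34, 0.96 ± 0.30 and 0.52 ± 0.16 and did not pass (edgeR adjusted p = 0.0946, 0.0775 and 0.0708). Without replicate 2, which holds 126 of the 351 members, 23 of 523 genes tested were called in place of 53 of 881. Without replicate 4, 35 of 882 were called.

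**Figure D3:**
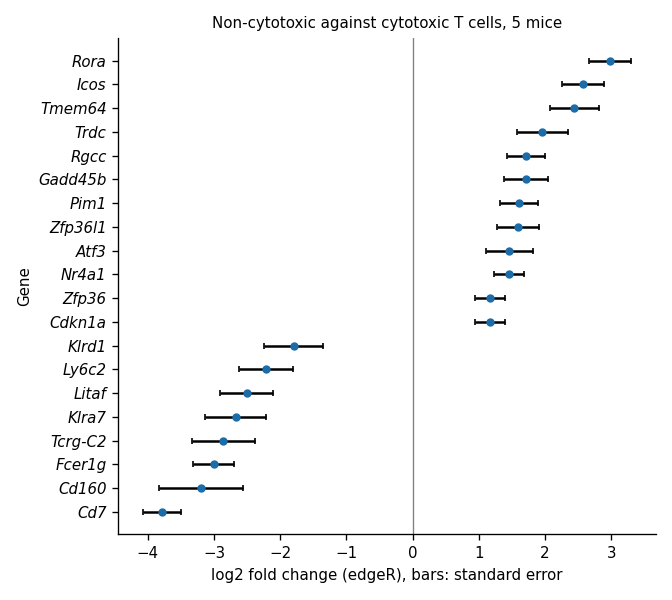
Log2 fold change of 20 genes between non-cytotoxic and cytotoxic T cells of the same 5 mice, with points for the edgeR estimate and bars for its standard error. The 12 largest increases and 8 largest decreases among genes past the test and of the same direction in each mouse are drawn, from Rora at 2.98 to Cd7 at -3.79.

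The members were not alike within a tumor. They were marked by at least 1 UMI of genes that name a program, and these marks are choices on measured values. Naive-marked cells (by a set of naive genes with Ccr7, Lef1 and S1pr1) were 140 of 351, or 39.9%. Gamma-delta-marked cells (Trdc or a Tcrg-C gene) were 55, or 15.7%, and regulatory-marked cells (Foxp3, Il2ra, Ctla4 or Ikzf2) were 49, or 14.0%. Of the 55, 36 held a Trdc UMI, and the rest were marked by a Tcrg-C gene alone. The summed gamma-delta mark genes were not particular to the members. They were at 469, 288, 1270, 417 and 2459 CPM in members of replicates 1, 2, 4, 5 and 7. In cytotoxic T cells they were at 547, 596, 789, 607 and 1078. Another 136 members had none of the marks. In all, 5 cells were both naive- and gamma-delta-marked, 10 were regulatory- and gamma-delta-marked, and 15 were naive- and regulatory-marked. These counts are pooled over tumors of different makeup, and whether they depart from the frequencies of the marks was not tested. After thinning to 300 UMIs (285 members), the shares were 30.5, 13.7 and 9.12% in the order naive, gamma-delta and regulatory, each below the share as deposited.

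The makeup differed strongly between tumors. Naive-marked cells were 34.5, 61.1, 27.9, 40.6 and 7.32% of the members in replicates 1, 2, 4, 5 and 7, and gamma-delta-marked cells were 10.3, 4.76, 22.1, 9.38 and 51.2%. Replicate 2 was thus the richest in naive-marked and the poorest in gamma-delta-marked cells, and replicate 7 the reverse. The exact binomial 95% intervals of these mice did not overlap, at 52.0 to 69.7% against 1.54 to 19.9% for naive-marked and 1.77 to 10.1% against 35.1 to 67.1% for gamma-delta-marked cells. Thinned to 300 UMIs, the naive-marked shares of replicates 2 and 7 were 43.8 and 8.82%, and the gamma-delta-marked shares 3.57 and 47.1%. The contrast in naive mark genes was not particular to the members. Summed, they were at 954 and 74.3 CPM in cytotoxic T cells of replicates 2 and 7, and at 537 and 59.0 in other immune cells. The summed gamma-delta mark genes were at 596 and 1078 CPM in cytotoxic T cells and 54.7 and 47.7 in other immune cells. In these 5 mice regulatory-marked shares ranged from 9.52 to 20.7% with overlapping intervals. Replicate 2 also held the most B cells by the rule of at least 2 Cd79a and Cd79b UMIs, 1.36% of its cells against 0 in replicate 7, and whether the naive-marked cells and B cells share a source was not tested. With 1 library per tumor, a difference between mice cannot be told apart from a difference between preparations.

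**Figure D4:**
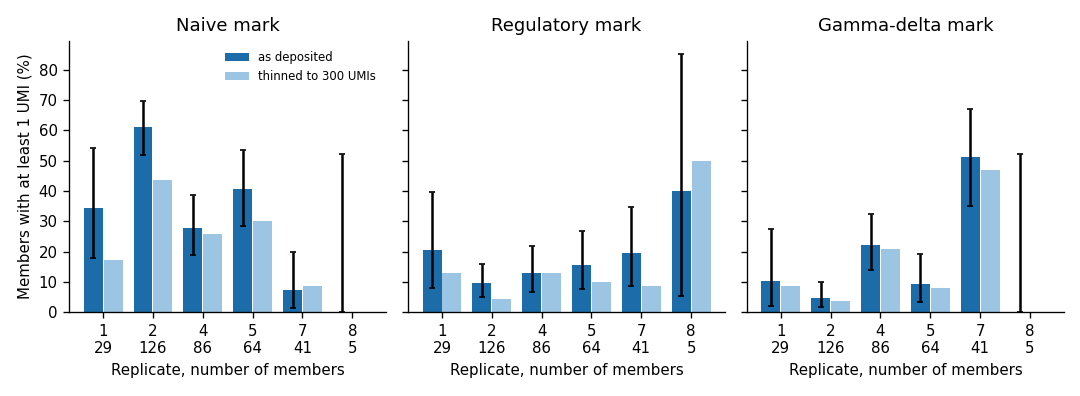
Percentage of members with at least 1 UMI of the naive, regulatory or gamma-delta mark genes in 6 tumors, as deposited (dark bars, lines are exact binomial 95% intervals) and after thinning each cell to 300 UMIs (light bars, cells with fewer UMIs left out). Numbers under the replicate are its members. Naive-marked cells are most frequent in replicate 2 (61.1%) and gamma-delta-marked cells in replicate 7 (51.2%).

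Gamma-delta-marked cells were compared with the other members in genes the mark did not use. Trac was without a UMI in 46 of the 55 (83.6%) but in 89 of the other 296 (30.1%), at median depths of 421 and 418 UMIs. Trac belongs to the gate, so its level is a description. Of the 55, 0 held a Cd4 UMI, which at 3 counts over the number of cells allows up to 5.45% with a captured UMI. This does not limit expression. On UMIs summed per mouse, in the 4 mice with at least 5 cells of each kind, the edgeR test called 17 of 135 genes (12.6%), with 13 higher (9.63%) and 4 lower (2.96%). This comparison was added after the data were seen, and scaled by library size only it called 11 higher and 15 lower. The filter asked for about 1034 CPM in 4 sums, and Il17a, S100a4, Hsp90b1, Lgals1, Itm2b and Fxyd5 lay below it in the other members on average, as Rpl30 did in the marked cells. Il17a was at 12483, 2699, 2158 and 6552 CPM in the gamma-delta-marked cells of replicates 2, 4, 5 and 7 and at 24.3, 148, 32.5 and 1753 in the other members. It rose by 5.05 ± 0.47 on the log2 scale (edgeR adjusted p = 6.72e-15), higher in 4 of 4 mice, although 44 of the 57 UMIs of replicate 2 lay in 1 cell. The log2 fold change was 3.26 without replicate 2 and 6.88 without replicate 7. Of the 39 Il17a-positive members, 28 were gamma-delta-marked. Rgs1, a regulator of G-protein signalling found in tissue lymphocytes, was at 4819 ± 1934 CPM against 1201 ± 864 (SD, n = 4), a log2 fold change of 2.39 ± 0.28 (edgeR adjusted p = 1.13e-10).

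The smaller calls in this comparison depended on the setting. S100a4 and Lgals1, a calcium-binding protein and a galectin, rose by 1.76 ± 0.39 and 1.66 ± 0.39, Itm2b by 1.53 ± 0.36 and Tmsb4x, which encodes the actin-binding thymosin beta-4, by 0.78 ± 0.14. Hsp90b1, an endoplasmic reticulum chaperone, rose by 1.66 ± 0.42, Nfkbia, the inhibitor of NF-kB, by 1.24 ± 0.26, and Fxyd5 by 1.21 ± 0.40. Rpl30, Rps20 and Rps14 fell by 0.98, 0.71 and 0.58 on the log2 scale, in 4 of 4 mice each. Without replicate 4, which holds 19 of these cells, 4 of 128 genes tested were called. Without replicate 7, which holds 21, 34 of 260 were called. Fxyd5 was called under 0 of 11 other settings, Hsp90b1 under 3 of 11, Nfkbia under 4 of 12, Rpl30 and Rps20 under 3 of 12, S100a4, Lgals1 and Rps14 under 6 of 12, Itm2b under 7 of 11 and Tmsb4x under 9 of 12. The DESeq2 test called 9 genes higher and 0 lower.

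**Figure D5:**
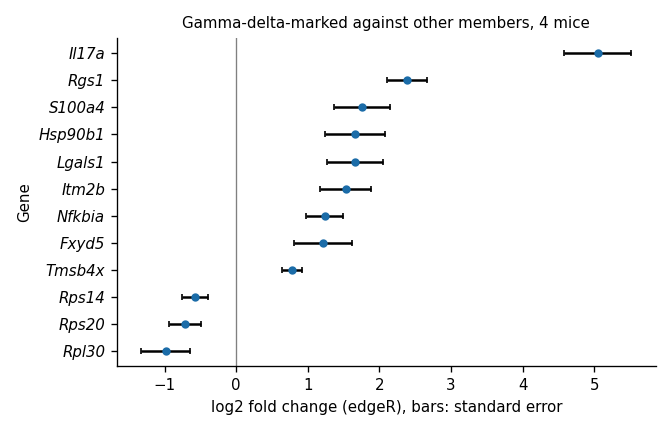
Log2 fold change of 12 genes between gamma-delta-marked and other members in 4 mice, with points for the edgeR estimate and bars for its standard error. Il17a stands apart at 5.05, and the 3 ribosomal protein genes lie between -0.98 and -0.58.

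Genes too low for the test were also set beside this division in pooled counts over all members, which are given as a description. Of the gamma-delta-marked cells 19 and 21 came from replicates 4 and 7, while 120 of the 296 others came from replicate 2, so differences between mice enter these counts. The gamma-delta-marked cells, with 27473 UMIs in all, held 37 of the 43 UMIs of Cd163l1, 18 of 21 of Trdv4, 11 of 15 of Blk and 10 of 10 of Il17f. The Il17f UMIs lay in only 2 cells, and 9 of them were in cells also naive- and regulatory-marked. They also held 36 of the 53 UMIs of Cxcr6, a chemokine receptor of resident T cells, and 28 of 67 of Il7r. Cd27, Lck and Cd5 had 0 UMIs in these cells against 31, 74 and 40 UMIs among 166302 UMIs of the other members. The 25 receptor and signalling genes did not all go in the same direction. Cd2 was at 36.4 CPM in the marked cells against 433 in the others. Lat was at 764 against 445, Thy1 at 1056 against 661 and Cd247 at 291 against 186. Beta-chain genes were not absent, since 26 of the 55 held a Trbc1 or Trbc2 UMI, against 210 of the 296 others. Trbc2 differed by -0.68 on the log2 scale in the test and was not called (edgeR adjusted p = 0.138), and Icos by 1.01 (edgeR adjusted p = 0.0575). Areg was at 1310 CPM in the gamma-delta-marked cells and 138 in the others, with 25 of its UMIs in 1 cell of replicate 2.

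Regulatory-marked members that were not naive-marked (34 cells) were set beside naive-marked members that were not regulatory-marked (125 cells). Only replicates 4 and 5 held at least 5 cells of each, so no test was made. Replicate 2 gave 3 of the former and 68 of the latter cells, and it held 38 of the 51 Dapl1 UMIs of all members, so differences between mice enter here too. At 17384 and 70893 UMIs in all, Tnfrsf4 had 16 UMIs in the former and 1 in the latter, and Klrg1, a receptor of differentiated T cells, 8 and 0. Tnfrsf9, a costimulatory receptor, had 10 and 4 UMIs, or 575 and 56.4 CPM, and Icos had 28 and 20 UMIs, or 1611 and 282 CPM. On the naive side, Klf2 was at 3837 CPM against 518, while Satb1 (44 UMIs), Dapl1 (30) and Igfbp4 (25) had 0 UMIs in the 34 regulatory-marked cells. With the cells that held both marks, the 49 regulatory-marked cells had 3, 10 and 0 UMIs of these genes. Il17a, with 16 and 2 UMIs, and Trdc, with 11 and 3, were also found on the regulatory-marked side, so this mark is not particular to Foxp3-type cells.

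Messages of cycling cells and of checkpoint receptors were sampled thinly. Mki67, a protein of cycling cells, was found in 11 members (3.13%), against 4.42% of cytotoxic T cells and 4.36% of other immune cells, and its level was 0, 46.1, 27.6, 327 and 0 CPM in replicates 1, 2, 4, 5 and 7. Of the 14 proliferation genes, Hmgb2 was higher than in other immune cells (1.16 ± 0.21, edgeR adjusted p = 0.000119), while 3 others tested did not pass. Pdcd1, the checkpoint receptor PD-1, had 15 UMIs in 14 members (3.99%), against 6.55% of cytotoxic T cells and 0.417% of other immune cells. Cxcr6 was at 117, 23.1, 635, 238 and 972 CPM in replicates 1, 2, 4, 5 and 7, and its difference from cytotoxic T cells (0.73 ± 0.44) did not pass the test (edgeR adjusted p = 0.461). Of the cytokine receptors, Il2rg, the chain shared by the receptors for interleukin-2 and interleukin-7, was at 777 ± 87.9 CPM and even across mice, and rose over other immune cells by 1.71 ± 0.24, but by 0.60 under the members' limits (edgeR adjusted p = 0.0664). Among 18 migration genes, Itgb7 was higher than in other immune cells and than in cytotoxic T cells, by 2.82 ± 0.45 and 1.33 ± 0.37 on the log2 scale (edgeR adjusted p = 2.41e-05 and 0.0441). Under the members' limits the former was 1.23 (edgeR adjusted p = 0.0241), and the latter call was lost under 7 of 12 other settings. Rgs1, by contrast, was slightly lower than in other immune cells (-0.57 ± 0.22, edgeR adjusted p = 0.0447), with 293, 738, 994, 1965 and 3889 CPM in the members, a call lost under 9 of 17 other settings.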

How the data were processed

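Per the paper's methods, the authors mapped reads to mm10 extended by the PyMT sequence and removed mitochondrial genes. What they deposited for each tumor is an unnormalized whole-number count of UMIs for every gene in every barcode. The processing notes name STAR and FastQC, and human builds at odds with mm10. Gene positions are from GENCODE for GRCm38. Mitochondrial genes were dropped from the 2 matrices that held them. Barcodes with 200 to 6000 genes were cells (1133 to 4780 and 962677 to 4471473 UMIs per library), and no doublet caller was run. Members and gene lists were chosen with earlier results of these data known.

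UMIs were summed per mouse over the cells of each kind (at least 10, or 5 within the members), from separate animals. Sums were tested with edgeR 4.0.16 in R 4.3.3 (TMM, filterByExpr, quasi-likelihood, mouse as block, adjusted p under 0.05), checked on simulated data. The genes of the gate stayed in the library sizes and out of the test. Both sums of a mouse come from 1 animal, and their deviations from the group means correlated with r = 0.26 to 0.52. Levels are CPM, computed here from each sum. Standard errors are the log2 fold change over the root of its F statistic. Named are the 12 largest increases and 8 largest decreases that agree in direction in each mouse, list members and defining genes. Itgb7, Gzmc, Gzmk, Hba-a1 and the genes in pooled counts were chosen after their values were seen. Alternatives were DESeq2 1.42.0, other scalings, filters and gates, each mouse left out, and thinning with numpy 2.4.6. Some genes, 1 of the naive mark among them, entered the computation but are not reported here.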

Additional observations from a re-analysis of the deposited data

Results flagged for a closer look

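Of 41 values by mouse that were screened for a single tumor far from the rest, 4 stood apart, and chance flags about 1 in 20. The summed helper genes were lowest in replicate 2, at 1442 CPM against 2982 in the next mouse. Cd247 was highest in replicate 7 at 343 CPM, with 6 UMIs. Mki67 was highest in replicate 5 at 327 CPM, with 11 UMIs. Cd160 was highest in replicate 1 at 117 CPM, with 2 UMIs. Each group had 5 mice.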

How the results depend on the processing

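The comparison with other immune cells called 632 of 1711 genes tested. With 1 mouse left out it called from 511 of 1308 (without replicate 2) to 710 of 2317 (without replicate 1). It called 392 of 1155 against Ptprc-positive cells only and 177 of 926 against immune cells under the members' limits. Without a filter on low counts it called 1496 of 22249. There 11.6% of the calls were higher, and the median of all genes was -0.87. Without the replicate block it called 488 of 1711. All 632 genes kept their direction under DESeq2 and library size scaling, which moved the median of all genes to -0.12 and 0.10 from -0.01 and the share of higher calls to 38.8 and 52.3% from 45.6%. In direction, 19 of the 632 reversed without a filter, 5 of 624 fitted in the WT series alone, 3 of 571 against immune cells with at most 1 epithelial UMI and 6 of 369 under the members' limits. Among genes named or listed, these were Ms4a6b in the WT series (-0.42), and Ccr7 (-0.14) and Ctsw (-0.45) under the members' limits.

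The comparison with cytotoxic T cells called 53 of 881 genes tested, 26 of 881 under DESeq2 and 22 of 913 in the CB series alone. It called 29 of 540 with at least 3 CD3/Trac UMIs, 80 of 16339 without a filter and 20 of 881 without the replicate block. With 1 mouse left out it called 23 of 523 (without replicate 2) to 60 of 1223 (without replicate 1), and 35 of 882 without replicate 4. Rora, Icos, Pim1, Cd7, Fcer1g and Litaf were called under all 14 other settings. Atf3 was called under 3 of 9 and Klrd1 under 4 of 9.

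The comparison of gamma-delta-marked cells was added after the data were seen. It called 17 of 135 genes tested, 9 under DESeq2, 26 with library size scaling and 3 without the replicate block, each of 135. In the CB and WT series alone it called 8 of 285 and 4 of 138. It called 6 of 90 with at least 3 CD3/Trac UMIs and 7 of 107 in members without B cell, myeloid or PYMT UMIs. Without a filter it called 1 of 12091. With 1 mouse left out it called 4 of 128 (without replicate 4) to 34 of 260 (without replicate 7). Of the 17, 2 reversed without a filter, Tmsb4x (-0.24) among them. In that fit the median of all genes was -1.005, against -0.08 in the main fit. Il17a was called under all 12 other settings.

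The mean share of members, 2.27%, was 0.992% with at least 500 genes and 1.09 and 3.92% with at least 3 and 1 CD3/Trac UMIs. It was 2.05% with 0 epithelial UMIs and 1.51% with cells thinned first. The SD between mice, 2.23, does not measure these changes, since each setting was applied to the same mice. With at least 500 genes the share fell in each tumor that held members, from 6.34 to 4.07% in replicate 2 and from 1.80 to 0.464% in replicate 4. The regulatory-marked share fell from 14.0 to 9.12% after thinning. With at least 500 genes per cell, 1 mouse remained and no test was made, and regulatory- against naive-marked members were not tested, since only 2 mice had enough cells of each. The cause of the changes was not tested. At a median of 419 UMIs per cell, a cell without a Cd4 or Foxp3 UMI cannot be called negative.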
